A study of Mus musculus with 12 samples.

Results

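The genes examined here were 10 interferon-inducible GTPases of the mouse, chosen by name: the 5 immunity-related GTPases (IRG) Irgm1, Irgm2, Igtp, Iigp1 and Tgtp2, and the 5 guanylate-binding proteins (GBP) Gbp2, Gbp3, Gbp5, Gbp7 and Gbp9. The choice was made with earlier results of these data known. All 10 were found among the 30165 genes of the table for oligodendrocyte precursor cells (OPCs) and among the 17918 genes of the table for neurons. Irgm1 was picked because its dKO against ctl change had opposite signs in the cell types, so its changes are given as a description with no test. The other 9 genes carry the test of a fit over all genes.

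Interferon-inducible GTPases are part of cell-autonomous immunity, in which a cell defends its own cytoplasm. Interferon gamma binds its receptor, signals through the kinases Jak1 and Jak2, and switches the GTPase genes on through transcription factors that include Irf1. The proteins then assemble on vacuoles and membranes that hold microbes and help to break them open or to deliver them to lysosomes. Irgm1, Irgm2 and Igtp are the regulatory IRG proteins that sit on the membranes of the cell and keep the effector IRG proteins, such as Iigp1 and Tgtp2, inactive there, and Irgm1 is also known for its part in autophagy and in the upkeep of mitochondria and lysosomes. The GBP proteins are larger, dynamin-related GTPases. In the healthy brain these genes are held at low levels and are induced in endothelial cells, microglia and other glia when interferon is present.

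RNA-seq libraries had been made from OPCs and neurons of mouse cortex. There were 12 of them, 3 for each of 4 groups (OPC ctl, OPC dKO, neuron ctl and neuron dKO), and each held cells pooled from 2 mice of its group. The dKO mice carried floxed Cacna1c and Cacna1d, the genes of the L-type calcium channels Cav1.2 and Cav1.3, and the tamoxifen-inducible NG2-CreERT2, which acts in cells with an active NG2 promoter, so that neurons of these mice were not the cells in which the channels were targeted. The labels give the genotype of the ctl mice as WT, and whether they carried floxed alleles, Cre or tamoxifen, and the age at isolation, are not given in the sources used here. OPCs were collected on magnetic beads against CD140, NG2 and O4, which also hold O4-positive maturing oligodendrocytes, and neurons were the unbound cells after depletion with beads for ACSA-2 (astrocytes), CD31 (endothelium), CD11b (microglia) and O4.

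The fractions were mixed. In the OPC fraction, the 10 OPC markers summed to between 315 and 1206 CPM (read counts scaled to a common library size) and the 10 oligodendrocyte markers to between 47581 and 82846 CPM. In the neuron fraction, the 10 neuron markers summed to between 738 and 1663 CPM, against 176 to 275 CPM in the OPC fraction, while the 10 endothelial markers summed to between 13497 and 29724 CPM although CD31, the product of Pecam1, was a target of the depleting beads. The groups are therefore called the OPC fraction and the neuron fraction. Library totals were between 14935963 and 19812274 counts in the OPC fraction and between 15052901 and 16344585 estimated counts in the neuron fraction.

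Cacna1c was measured at 21.3, 23.5 and 25.1 CPM in the ctl libraries 1, 2 and 3 of the OPC fraction and at 14.4, 19.3 and 17.9 CPM in the dKO libraries. Cacna1d stood at 14.4, 10.9 and 14.6 CPM in ctl and at 5.31, 8.77 and 13.3 CPM in dKO. Both targeted genes were lower on average in dKO, by -0.44 and -0.55 on the log2 scale, with separate groups for Cacna1c and overlapping groups for Cacna1d (edgeR adjusted p = 0.349 and 0.531). Whole-gene counts include the exons outside the deleted stretch and transcripts of cells without Cre. In the neuron fraction, Cacna1c and Cacna1d averaged 5.69 and 1.31 CPM in ctl and 7.71 and 2.28 CPM in dKO.

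The sequences just upstream of the GTPase genes are shown because such stretches hold the elements through which interferon acts on its target genes. RefSeq promoters (build GRCm38.p6, from 250 bases before to 50 bases after the start of transcription) were matched for 8 of the 10 genes, all but Gbp9 and Iigp1. Interferon-stimulated response elements are bound by interferon regulatory factors and hold repeats of GAAA. A pair of GAAA with 2 bases between them, searched on both strands, was found in 8 of the 9 promoters of the matched genes, against 3.44% of all 32851 promoters. Each of the 8 matched genes had a promoter with a match. Each window below holds 60 bases around the match, upstream of the start of the gene, written along the strand of the gene with the GAAA pairs and the bases between them, or their reverse complement, in capitals. Irgm1 and Gbp3 are given for their overlapping copies, Igtp and Irgm2 as a pair of alike sequences, and Gbp5 for the copy that lies farthest from its start.
Irgm1 (chr11:48871421-48871480, minus strand): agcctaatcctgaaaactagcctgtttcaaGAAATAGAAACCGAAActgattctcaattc
Igtp (chr11:58199496-58199555, plus strand): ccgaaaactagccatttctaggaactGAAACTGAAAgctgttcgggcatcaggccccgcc
Irgm2 (chr11:58214888-58214947, plus strand): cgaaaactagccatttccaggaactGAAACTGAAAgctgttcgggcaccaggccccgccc
Gbp3 (chr3:142559977-142560036, plus strand): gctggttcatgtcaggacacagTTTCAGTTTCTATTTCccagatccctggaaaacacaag
Gbp5 (chr3:142496744-142496803, plus strand): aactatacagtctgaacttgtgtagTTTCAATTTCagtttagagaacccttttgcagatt

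In Irgm1 the capitals begin 30 and 24 bases before the start, so that both copies overlap. The first base of the match lies 34 bases before the start in Igtp, 64 in Irgm2, 70 in Tgtp2, 59 in Gbp2, 53 in Gbp7 and 165 in Gbp5, and in Gbp3 the copies begin 45 and 39 bases before the start. All GBP matches read as pairs of TTTC along the gene, the reverse complement, and all IRG matches as pairs of GAAA. A second RefSeq promoter of Gbp3 held no match. The printed windows of Igtp and Irgm2 share an unbroken run of 29 bases. Their longest shared run, of 55 bases, lies farther upstream, from 181 to 127 bases before the start of Igtp and from 215 to 161 bases before that of Irgm2, and is not printed. A match of letters is a description of the sequence and not a site shown to be bound.

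Most of the genes lie in clusters, and Iigp1 is the only one of the 10 on chromosome 18. By the coordinates of the deposited OPC table, for which the labels name mm39 and the methods GRCm38, Irgm1 spans chr11:48752795-48762510 on the minus strand and Tgtp2 chr11:48948021-48955033 on the minus strand, while Igtp (chr11:58090382-58098417) and Irgm2 (chr11:58090444-58113608) lie on the plus strand of the same chromosome. Gbp5 (chr3:142199739-142228105), Gbp7 (chr3:142236103-142255910), Gbp3 (chr3:142265787-142278970) and Gbp2 (chr3:142326363-142343769) stand in a row on the plus strand, and Gbp9 lies at chr5:105225496-105287405 on the minus strand. These spans are not on the build of the promoter windows above. The minus-strand gene Irgm1 ends at 48762510 here, while its GRCm38.p6 window lies at 48871421-48871480. Overlaps make some counts uncertain. The span of Igtp lies to 99.2% within that of Irgm2, and the span of Gbp9 lies within that of Gbp8 and to 38.4% within that of Gbp4, in each case on the same strand. Tgtp2 has a near-identical copy, Tgtp1, and reads could be split between them in either table.

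Compared per length within a table, the genes stood in different orders in the fractions. In the ctl libraries of the OPC fraction, in FPKM as deposited, Gbp2 (6.88 ± 1.04, SD, n = 3) and Gbp3 (6.77 ± 1.45) led, followed by Gbp9 (4.54 ± 0.87), Igtp (3.67 ± 1.10), Irgm2 (3.49 ± 0.394), Gbp7 (2.63 ± 0.521), Gbp5 (2.05 ± 0.541), Irgm1 (1.38 ± 0.279), Iigp1 (1.13 ± 0.213) and Tgtp2 (0.84 ± 0.19). Gaps larger than the SD of either neighbour lay between Gbp3 and Gbp9, Irgm2 and Gbp7, Gbp7 and Gbp5, Gbp5 and Irgm1, and Iigp1 and Tgtp2. In the ctl libraries of the neuron fraction, in deposited TPM summed per gene, Tgtp2 stood highest (418 ± 367, SD, n = 3), ahead of Irgm1 (301 ± 162), Gbp3 (286 ± 121), Igtp (272 ± 211), Iigp1 (244 ± 187), Gbp2 (244 ± 139), Irgm2 (170 ± 76.3), Gbp9 (124 ± 21.6), Gbp7 (119.5 ± 45.5) and Gbp5 (30.4 ± 16.3). There the gap between Gbp7 and Gbp5 alone was larger than the SD of both neighbours. The tables were made by different counting methods, so the levels were not tested between fractions.

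In the neuron fraction all 10 GTPases were lower in dKO than in ctl on average, by between 1.78-fold and 5.55-fold. Irgm1 was measured at 525, 174 and 349 CPM in the ctl libraries 1, 2 and 3 and at 106, 162 and 119 CPM in the dKO libraries. Each dKO library was below each ctl library, and the gap between the lowest ctl and the highest dKO library was small beside the spread within ctl. The mean of Irgm1 was 349 ± 175 CPM in ctl and 129 ± 29.3 CPM in dKO (SD, n = 3), a log2 fold change of -1.44 ± 0.36 (SE). In such bulk libraries, fewer cells of a type and less RNA per cell cannot be told apart.

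Of the other regulatory IRG genes, Igtp stood at 533, 123 and 226 CPM in ctl and at 73.7, 88.5 and 82.2 CPM in dKO (log2 fold change -1.85 ± 0.45, SE). Irgm2 stood at 474, 188 and 362 CPM in ctl and at 72.2, 185 and 151 CPM in dKO (-1.33 ± 0.40). Both genes had separate groups, with ctl library 2 and dKO library 2 almost level for Irgm2. In deposited TPM, which lack the normalization between libraries used here, these libraries changed places for Irgm2, with 95.6 in ctl 2 and 98.9 in dKO 2.

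The effector IRG genes had the largest changes of the set. Iigp1 was at 749, 170 and 333 CPM in ctl and at 95.0, 108 and 111 CPM in dKO (log2 fold change -1.99 ± 0.46, SE). Tgtp2 was at 1256, 230 and 460 CPM in ctl and at 157, 131 and 62.5 CPM in dKO (-2.47 ± 0.60). In both, the dKO libraries were below all ctl libraries, and ctl library 1 was 2.98 times the mean of the other ctl libraries for Iigp1 and 3.64 times for Tgtp2. Tgtp1, the copy of Tgtp2, had the same change (-2.47 ± 0.57).

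Among the GBP genes, Gbp2, which coats the vacuoles of intracellular parasites, was at 519, 188 and 278 CPM in ctl and at 104, 140 and 123 CPM in dKO (log2 fold change -1.43 ± 0.34, SE). Gbp3 was at 609, 273 and 427 CPM in ctl and at 124, 218 and 181 CPM in dKO (-1.32 ± 0.31). Gbp7, which has been linked to the assembly of the NADPH oxidase on such vacuoles, was at 528, 255 and 393 CPM in ctl and at 136, 212 and 206 CPM in dKO (-1.09 ± 0.28). The groups did not overlap for any of these 3 genes.

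Gbp9 had the smallest change, with 430, 308 and 455 CPM in ctl and 135, 276 and 259 CPM in dKO (-0.83 ± 0.28, SE), again with separate groups. Gbp5, known for promoting assembly of the NLRP3 inflammasome, was the least abundant, with 78.5, 27.6 and 48.4 CPM in ctl and 10.2, 28.8 and 17.0 CPM in dKO (-1.46 ± 0.44). It was the member whose groups overlapped, since dKO library 2 was above ctl library 2.

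**Figure D1:**
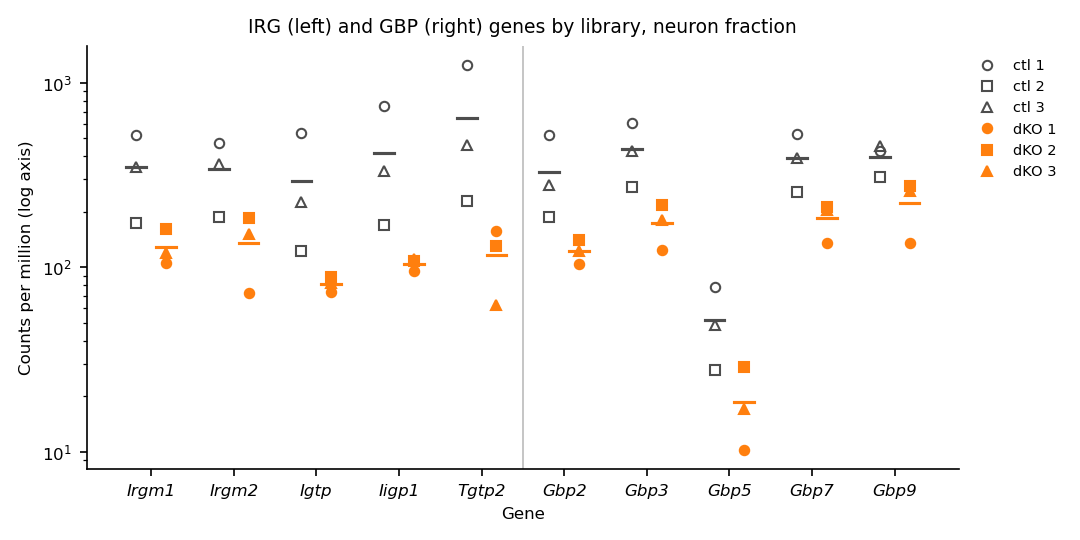
CPM of the 10 GTPases in each library of the neuron fraction, on a log axis, with ctl libraries as open grey symbols, dKO libraries as filled orange symbols, and a bar at the mean of the 3 libraries. Control library 1 is the highest for 9 genes, and dKO libraries lie below ctl libraries for each gene except Gbp5.

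None of the 9 genes other than Irgm1 passed an adjusted p of 0.05 in edgeR's quasi-likelihood test in the neuron fraction, where 0.0% of the 14352 genes tested were called (adjusted p = 0.521 for each of the 9). At an unadjusted p under 0.05, 9 of 9 were lower, against 4.04% of all genes tested. The groups were separate, with dKO lower, for 8 of 9, against 7.82% of all genes, and the log2 fold change was below -1 for 8 of 9, against 2.26%. The 9 genes are not independent of each other or of Irgm1, which was picked for its change in these libraries. Over the neuron libraries their Pearson's r with Irgm1, on log2(CPM + 1), ran from 0.85 (Gbp9) to 0.98 (Gbp2). Their counts are therefore not 9 separate results. The call depended on the tool. DESeq2 called 5 of 9 genes lower, where it called 0.411% of all genes lower: Iigp1 (adjusted p = 0.00263), Igtp (0.00797), Gbp2 (0.00962), Gbp3 (0.00962) and Gbp7 (0.0286). Irgm2, Gbp5, Tgtp2 and Gbp9 were not called (DESeq2 adjusted p = 0.0605, 0.0802, 0.124 and 0.163). With 3 libraries against 3, a two-sided exact permutation test of a single gene cannot give a p below 0.1.

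Without ctl library 1 of the neuron fraction, which held the highest value of 9 of the 10 genes, the log2 fold changes of the 9 tested genes lay between -1.56 and -0.77, and 9 of 9 were still lower at an unadjusted p under 0.05, against 2.14% of all genes. Leaving it out moved 4 genes by more than 1.5 times, bringing Tgtp2 to -1.56, Iigp1 to -1.26, Igtp to -1.10 and Gbp2 to -0.93. The median over these 9 genes moved from -1.43 to -1.02, beside a median of 0.01 over all genes tested. None was called without it (edgeR adjusted p = 0.870).

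The OPC fraction held lower CPM of these genes, and 9 of the 10 were higher in dKO on average, by at most 1.62-fold. Irgm1 was measured at 8.71, 6.20 and 9.38 CPM in the ctl libraries 1, 2 and 3 and at 11.7, 10.1 and 17.6 CPM in the dKO libraries. Each dKO library was above each ctl library. Its mean was 8.10 ± 1.68 CPM in ctl and 13.1 ± 3.97 CPM in dKO (SD, n = 3), a log2 fold change of 0.69 ± 0.26 (SE).

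Igtp was at 9.26, 4.91 and 8.31 CPM in ctl and at 10.2, 9.34 and 14.0 CPM in dKO (log2 fold change 0.57 ± 0.27, SE). It was the other member with separate groups, with ctl library 1 and dKO library 2 almost level. Irgm2 was at 14.7, 11.5 and 12.8 CPM in ctl and at 12.97, 13.5 and 27.6 CPM in dKO (0.47 ± 0.29), so that dKO library 3 alone stood clear of ctl.

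The effector IRG genes were the least abundant per length. Iigp1 was at 6.41, 5.52 and 8.01 CPM in ctl and at 6.71, 4.57 and 8.14 CPM in dKO (log2 fold change -0.04 ± 0.27, SE), with groups that overlapped throughout. Tgtp2 was at 2.50, 1.91 and 3.05 CPM in ctl and at 5.37, 2.85 and 1.59 CPM in dKO (0.39 ± 0.44). Its direction was not stable, since without dKO library 1 the log2 fold change was -0.16, and the summed counts of Tgtp1 and Tgtp2 gave -0.14. Tgtp1 alone was lower on average in dKO (-0.57 ± 0.45).

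All 5 GBP genes averaged higher in dKO in the OPC fraction, with overlapping groups. Gbp5 was at 14.3, 9.81 and 17.1 CPM in ctl and at 17.8, 14.7 and 27.2 CPM in dKO (log2 fold change 0.53 ± 0.27, SE). The other 4 had log2 fold changes of 0.41 ± 0.28 (Gbp7), 0.40 ± 0.25 (Gbp3), 0.36 ± 0.28 (Gbp9) and 0.31 ± 0.21 (Gbp2). Gbp9, which had the highest CPM of them but not the highest level per length, was at 27.3, 18.3 and 25.4 CPM in ctl and at 28.7, 19.2 and 43.3 CPM in dKO, where dKO library 2 lay between the ctl libraries.

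**Figure D2:**
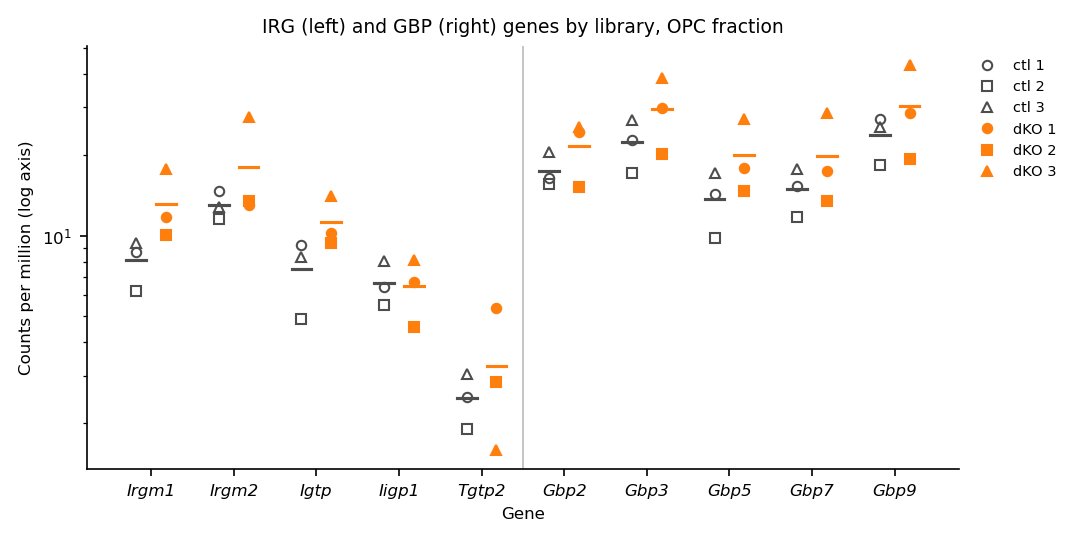
CPM of the 10 GTPases in each library of the OPC fraction, on a log axis, with symbols and mean bars as for the neuron fraction. The dKO library 3 is the highest for 9 genes, and only Irgm1 and Igtp have all dKO libraries above all ctl libraries.

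No gene of the 9 passed an adjusted p of 0.05 in the OPC fraction, where edgeR called 0.00576% of the 17364 genes tested. Adjusted p-values ran from 0.465 for Igtp to 0.967 for Iigp1 in edgeR, and none of the 9 was called by DESeq2, which called 1.72% of all genes. At an unadjusted p under 0.05 in edgeR, 0 of 9 were higher, against 6.27% of all genes. The log2 fold change was above 0 for 8 of 9, against 50.8% of all genes, and the groups were separate with dKO higher for 1 of 9, against 7.41%. The median over these 9 genes was 0.40, beside 0.01 over all genes tested.

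Single libraries weighed on these values. The dKO library 3 of the OPC fraction was the highest library for 9 of the 10 genes and ctl library 2 the lowest for 7. Without dKO library 3 the median over the 9 genes other than Irgm1 was 0.15, and without ctl library 2 it was 0.25. Leaving out dKO library 3 brought Gbp9 to a log2 fold change of 0.0051, Irgm2 to 0.014, Gbp7 to 0.033, Gbp3 to 0.15, Gbp2 to 0.17, Gbp5 to 0.23 and Igtp to 0.37, while Tgtp2 stood at 0.71 without it and Iigp1 at -0.25. Leaving out ctl library 2 brought the 9 genes to between -0.16 and 0.39. Library 2 of dKO stood apart in the table as a whole, with 199 genes called by edgeR when it was left out. Without it the median over the 9 genes was 0.62, 6 of 9 were higher at an unadjusted p under 0.05, against 8.08% of all genes, and none of the 9 was called (lowest edgeR adjusted p = 0.225).

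The change in the OPC fraction minus the change in the neuron fraction, tested as an interaction of cell type and genotype over 13396 genes measured in both tables, was above 0 for 9 of the 9 genes other than Irgm1, and it was above 0 for 49.9% of all genes tested. For Irgm1, which was chosen for this difference, it was 2.13 ± 0.50 (log2, SE). It was 2.87 ± 0.86 for Tgtp2, 2.42 ± 0.60 for Igtp, 1.99 ± 0.59 for Gbp5, 1.95 ± 0.59 for Iigp1 and 1.80 ± 0.56 for Irgm2. For the remaining GBP genes it lay between 1.19 ± 0.44 (Gbp9) and 1.74 ± 0.45 (Gbp2). For each of the 10 genes the change in the neuron fraction was larger in size than that in the OPC fraction.

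**Figure D3:**
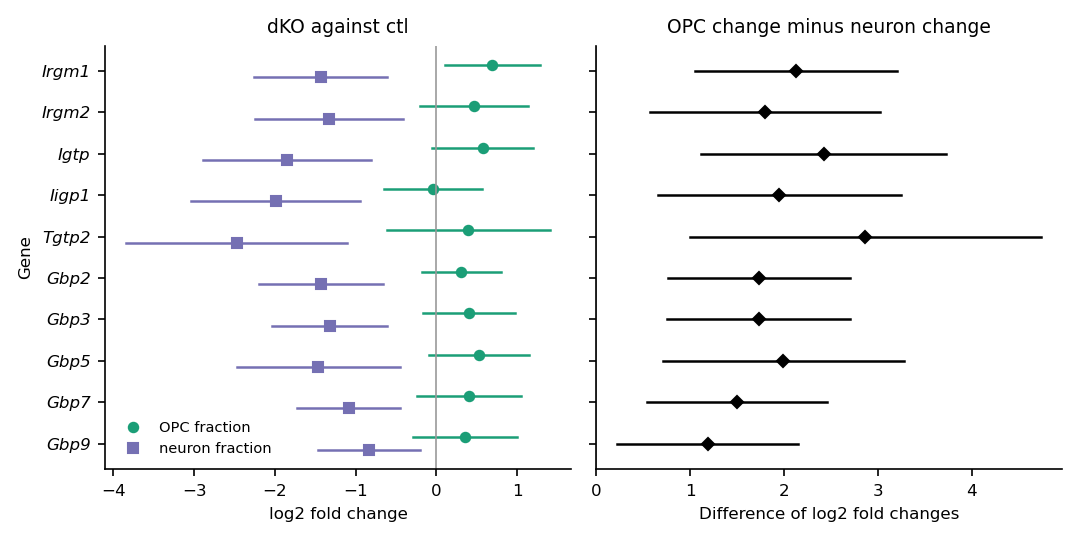
Left, log2 fold changes of dKO against ctl for each GTPase in the OPC fraction (circles) and the neuron fraction (squares). Right, the difference between them. Lines are 95% confidence intervals of the edgeR fits, and Irgm1 was chosen for its values here. All neuron values lie below 0, and the OPC values lie above 0 except for Iigp1 at -0.04.

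Without neuron ctl library 1 the difference of the 9 tested genes lay between 1.13 and 1.96, and that of Iigp1 was 1.215 in place of 1.95, the only one to move by more than 1.5 times. With each of the other libraries left out in turn the 9 genes lay between 0.84 and 3.27.

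None of the 9 tested genes passed an adjusted p of 0.05 for this difference in edgeR, which called 0.0% of all genes (adjusted p from 0.286 to 0.357). At an unadjusted p under 0.05, 9 of 9 differed with the OPC change above the neuron change, against 6.9% of all genes. As in the neuron fraction, the 9 genes are not independent of each other or of Irgm1, which was chosen for this difference. DESeq2 called 3 of 9 in that direction, where it called 0.791% of all genes: Igtp (adjusted p = 0.0125), Gbp2 (0.0270) and Gbp3 (0.0270). The OPC and neuron tables have the same design but separate libraries, and whether an OPC and a neuron library with the same number came from the same mice is not given in the sources used here.

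Markers of other cell types also differed between the groups. In the neuron fraction, the summed level of the 10 endothelial markers was between 26274 and 29724 CPM in ctl and between 13497 and 23449 CPM in dKO. All 10 markers averaged lower in dKO, 8 with separate groups, against 7.82% of all genes, and the median log2 fold change was -0.44, against -1.43 for the 9 GTPases other than Irgm1. All 9 markers of T and natural killer (NK) cells averaged lower too, with a median of -1.04 and sums of 94.0 to 285 CPM in ctl and of 52.2 to 163 CPM in dKO, and none of them was at 0 in any library. The 12 microglial markers averaged lower with a median of -0.71 and overlapping sums of 414 to 1843 CPM in ctl and 391 to 1033 CPM in dKO. All 10 oligodendrocyte markers averaged lower with a median of -0.95, as did 6 of 7 border macrophage markers with a median of -0.87 and 7 of 10 astrocyte markers with a median of -0.39. In contrast, 9 of 10 neuron markers averaged higher with a median of 0.53, and 5 of 6 ependymal and choroid plexus markers with a median of 1.11. Library 1 of ctl, the highest for 9 of the 10 GTPases, also held the highest sums of the microglial (1843 CPM), oligodendrocyte (3777 CPM), astrocyte (1184 CPM) and border macrophage (27.4 CPM) markers. None of these markers was called by edgeR or by DESeq2.

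Set against the endothelial markers, a ratio computed after the values were seen, the 10 GTPases together amounted to 20.4, 7.37 and 11.2 CPM per 100 CPM of endothelial marker in the ctl libraries 1, 2 and 3 of the neuron fraction, and to 7.51, 6.83 and 5.59 in the dKO libraries. On this ratio the groups overlapped, since dKO library 1 was above ctl library 2. Against the T and NK cell markers they overlapped as well, with 1168 to 3140 CPM per 100 CPM in ctl and 621 to 2525 in dKO. Against the microglial markers the groups were separate, with 309 to 467 in ctl and 150 to 259 in dKO, and so they were against the neuron markers, with 184 to 772 in ctl and 60.95 to 126 in dKO. The dKO library 1 had the lowest level of 9 of the 10 GTPases, the lowest endothelial sum, and the highest sum of ependymal and choroid plexus markers at 30656 CPM, against 4945 to 14625 CPM in the other 5 libraries. Without dKO library 1 the median of the 9 GTPases other than Irgm1 was -1.17, and 9 of 9 remained lower at an unadjusted p under 0.05, against 4.35% of all genes. The part of the other cell types in the change of the GTPases was not tested.

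All 12 microglial markers were higher at an unadjusted p under 0.05 in dKO in the OPC fraction, against 6.27% of all genes, with a median log2 fold change of 1.32 and sums of 257 to 311 CPM in ctl and of 334 to 1039 CPM in dKO. All 10 astrocyte markers averaged higher with a median of 1.09, and all 10 endothelial markers with a median of 0.38 and overlapping sums of 1853 to 2648 CPM in ctl and 1586 to 4371 CPM in dKO. All 7 border macrophage markers averaged higher with a median of 0.71 and separate sums of 22.2 to 23.8 CPM in ctl and 31.6 to 46.9 CPM in dKO. All 10 OPC markers averaged higher too, with a median of 0.62, as did 9 of 10 neuron markers (0.41) and 6 of 7 mural markers (0.39), while 8 of 10 oligodendrocyte markers averaged lower (-0.42). None of these markers passed an adjusted p of 0.05 in edgeR. DESeq2, which called 1.72% of all genes, called 9 of the 12 microglial markers (among them C1qa, Csf1r, P2ry12 and Tmem119) and 4 of the 10 astrocyte markers (Fgfr3, Gfap, Gja1 and Slc1a3) higher, and the oligodendrocyte marker Aspa lower. The summed GTPases amounted to 5.50, 5.54 and 5.63 CPM per 100 CPM of endothelial marker in the ctl libraries and to 4.69, 7.75 and 5.31 in the dKO libraries. The ctl libraries thus lay within 5.50 to 5.63, with dKO libraries 1 and 3 below them and dKO library 2 above. Their proportion to the microglial markers was 39.9 to 51.0 CPM per 100 CPM in ctl and 20.9 to 36.8 in dKO. None of the 9 markers of T and NK cells passed the filter there, and Cd3e was at 0 in 5 of 6 libraries. Whether the cells behind these markers carried the change of the GTPases was not tested.

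**Figure D4:**
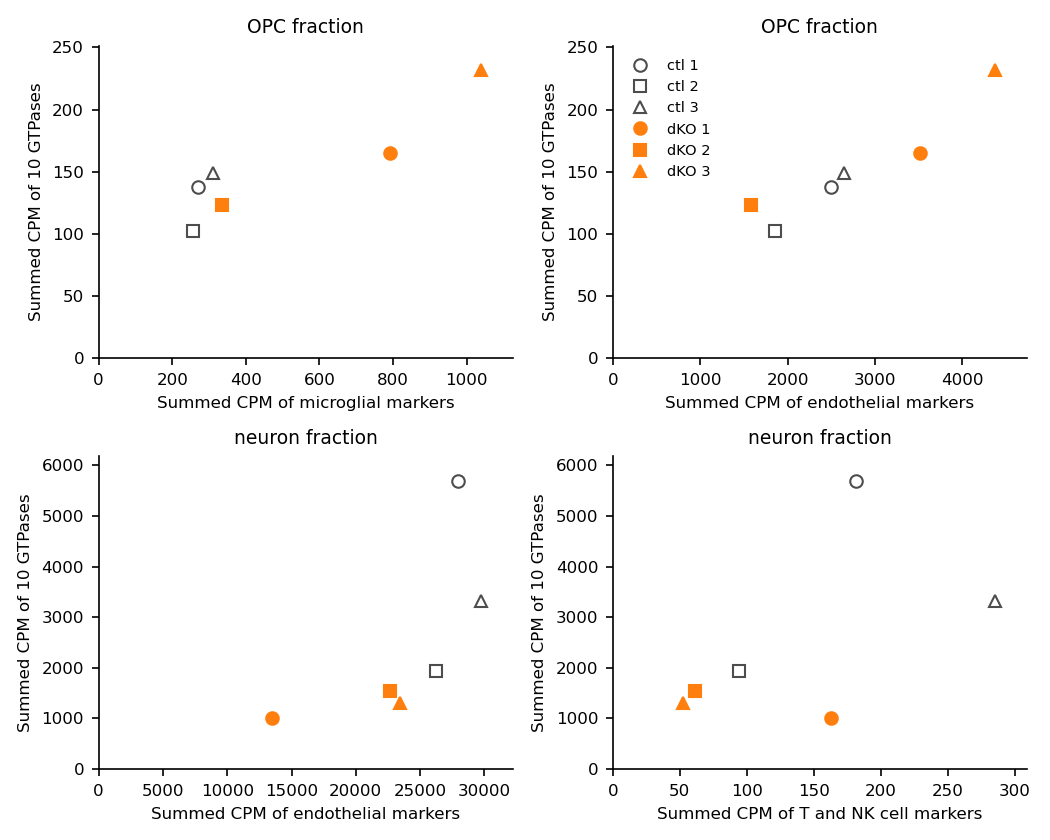
Summed CPM of the 10 GTPases against summed CPM of marker genes of other cell types, for each library, in the OPC fraction (top, microglial and endothelial markers) and the neuron fraction (bottom, endothelial and T and NK cell markers), with ctl libraries open and dKO libraries filled. The highest GTPase sum of the OPC fraction, 232 CPM in dKO library 3, goes with the highest microglial and the highest endothelial sum. That of the neuron fraction, 5702 CPM in ctl library 1, goes with the highest sum of neither marker list shown for it. It goes with the highest microglial sum of that fraction, which is not plotted.

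The rest of the interferon pathway was examined with lists of genes grouped by role. No gene of these lists passed an adjusted p of 0.05 in edgeR in either fraction. In the neuron fraction DESeq2 called 3 of 10 transcription factor genes lower (among them Irf1 and Nlrc5), 6 of 19 further targets of interferon gamma (among them Tap1 and Cd274), 4 of 22 type I interferon targets (among them Ifit3 and Ifi44) and 3 of 10 other GTPases (among them Gm4951), against 0.411% of all genes. Of these lists it called none of the genes in the OPC fraction. The counts that follow are at an unadjusted p under 0.05 in edgeR, which 4.04% of all genes passed with a lower level in the neuron fraction and 6.27% with a higher level in the OPC fraction. At the top of the pathway, 8 of 10 genes for interferons, receptors and their kinases were tested in the neuron fraction, and 3 were lower. In the OPC fraction 7 were tested, of which 4 averaged higher and 2 passed, both genes for chains of the interferon gamma receptor. Ifngr2 was at 8.76, 8.24 and 9.26 CPM in ctl and at 14.6, 10.3 and 13.2 CPM in dKO (log2 fold change 0.54 ± 0.18, SE), with separate groups, and Ifngr1 had a log2 fold change of 0.48 ± 0.21, with overlapping groups. Jak2 went the other way in the OPC fraction and did not pass, with a log2 fold change of -0.24 ± 0.11 and separate groups. Ifng, which encodes interferon gamma, was at 28.4, 3.55 and 13.2 CPM in the ctl libraries of the neuron fraction and at 7.09, 1.82 and 1.05 CPM in its dKO libraries. Its order over the ctl libraries was that of Irgm1, with library 1 highest and library 2 lowest, while among the dKO libraries it was highest in library 1, where Irgm1 was lowest. Ifng in the OPC fraction was at 0.00 to 0.20 CPM and was not tested.

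Of the 10 transcription factor genes, all were lower on average in dKO in the neuron fraction, 6 at an unadjusted p under 0.05, with a median of -0.79. Irf1 was at 195, 107 and 140 CPM in ctl and at 62.4, 92.7 and 73.0 CPM in dKO (log2 fold change -0.96 ± 0.24, SE, edgeR adjusted p = 0.521), and Nlrc5, which switches on class I antigen presentation, had a log2 fold change of -1.55 ± 0.35. Both had separate groups. Among the OPC libraries, 8 of the 10 averaged higher, with a median of 0.32, and Irf1 was again a gene with separate groups, at 34.2, 29.0 and 35.5 CPM in ctl and at 42.2, 38.5 and 54.1 CPM in dKO (0.45 ± 0.15, adjusted p = 0.348). Irf8, a factor of microglia and macrophages, was at 4.41 ± 0.646 CPM in ctl and 11.1 ± 5.87 CPM in dKO (SD, n = 3).

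Most further targets of interferon gamma were also lower on average in the neuron fraction. Of 19 tested, 18 averaged lower in dKO and 12 at an unadjusted p under 0.05, with a median of -0.70. Tap1, which carries peptides to class I molecules, was at 168, 43.9 and 82.3 CPM in ctl and at 27.5, 33.6 and 27.9 CPM in dKO (-1.72 ± 0.42, edgeR adjusted p = 0.521), and Cd274, which encodes PD-L1, had a log2 fold change of -1.71 ± 0.41. Of the 22 type I interferon targets, 21 averaged lower and 15 at an unadjusted p under 0.05, with a median of -0.60, among them Ifit3 (-0.95 ± 0.21) and Ifi44 (-0.95 ± 0.21). Among the OPC libraries, 17 of 18 gamma targets and 18 of 21 type I targets averaged higher, 4 and 3 of them at an unadjusted p under 0.05, with medians of 0.41 and 0.25. Ifit3 was at 9.15 ± 0.907 CPM in ctl and 14.7 ± 2.47 CPM in dKO there (SD, n = 3), with separate groups.

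A list of other GTPases, which holds further IRG and GBP genes beside Gvin1, Irgq, Mx1 and Mx2, had a median log2 fold change of -1.79 in the neuron fraction, where 9 of 10 tested averaged lower and 8 at an unadjusted p under 0.05. Mx1 and Mx2 were not among those tested there. Gbp4, which overlaps Gbp9 in the genome, was at 1009, 214 and 522 CPM in ctl and at 114, 170 and 111 CPM in dKO (-2.14 ± 0.49, SE, edgeR adjusted p = 0.521), and the IRG gene Gm4951 had a log2 fold change of -2.53 ± 0.59. For the OPC fraction 5 of the 11 tested averaged higher and 6 lower, none at an unadjusted p under 0.05, with a median of 0.00. The inhibitors of interferon signalling had medians near 0 in the neuron fraction (-0.05, with 7 of 8 lower on average and none at an unadjusted p under 0.05), and of 0.25 in the OPC fraction, where Ptpn6 alone was higher at an unadjusted p under 0.05.

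The genes whose levels ran most like those of Irgm1 were sought among 13395 genes, by Pearson's r of log2(CPM + 1) over the 12 libraries after the mean of each fraction was subtracted. The first 5 were Irf1 (r = 0.99), Tap1 (0.97), Igtp (0.97), Gbp3 (0.97) and Gbp5 (0.97), 3 of them members of the set. Within the 6 libraries of a fraction, r with Irf1 was 1.00 in the OPC fraction and 0.98 in the neuron fraction. Iigp1 and Tgtp2 followed Irgm1 over the neuron libraries (r = 0.98 and 0.93) and less so over the OPC libraries (0.52 and -0.01). These points share libraries and, within a fraction, the ctl and dKO groups, and the correlations are a description with no test. By Spearman's rho the first 5 were Igtp, Tap1, Irf1, Cxcl1 and Gem, 1 of them a member.

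**Figure D5:**
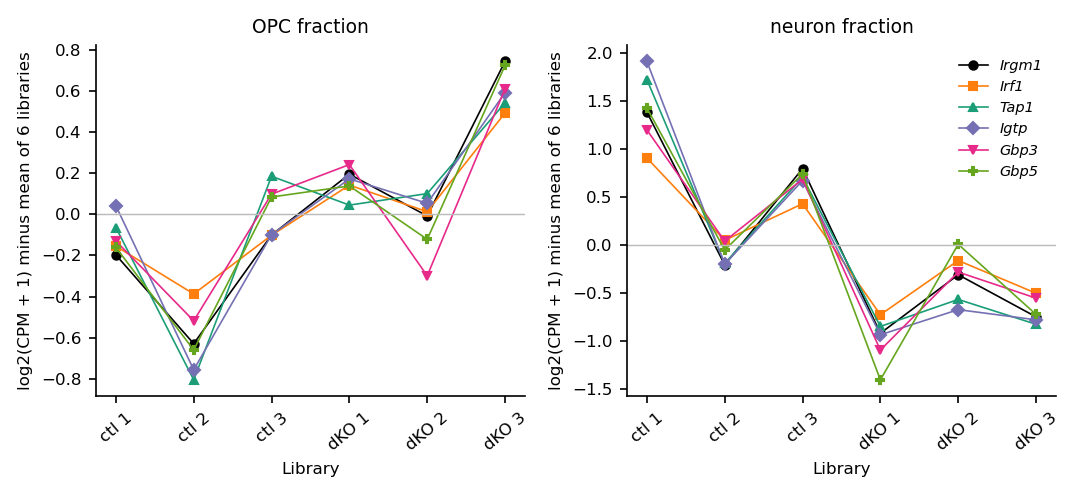
Levels of Irgm1 and the 5 genes most like it, as log2(CPM + 1) minus the mean over the 6 libraries of the fraction, in the OPC fraction (left) and the neuron fraction (right). Lines join the values of a gene and carry no order. Each of the 6 genes has dKO library 3 highest in the OPC fraction and ctl library 1 highest in the neuron fraction.

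The neuron table lists transcripts, and the transcript make-up of the GTPases was compared there. Irgm1 had 4 listed transcripts, of which the main held 73.3% ± 0.9 of its estimated counts in ctl and 73.4% ± 1.7 in dKO (SD, n = 3), and the next held 24.1% ± 0.7 and 24.5% ± 2.3. For Gbp3, with 6 transcripts, the share of the main transcript was 42.9% ± 4.0 in ctl and 34.0% ± 4.7 in dKO, while another held 19.9% ± 2.5 and 28.4% ± 6.1, and for the main the libraries met at 38.3% in ctl 2 and dKO 1. For Iigp1, with 7 transcripts, the main held 54.8% ± 2.8 in ctl and 55.2% ± 10.4 in dKO. The next held 24.5% ± 12.7 and 37.3% ± 12.7, and the one after it 14.4% ± 14.1 and 2.3% ± 4.1, with overlapping groups for both. Irgm2, Igtp, Tgtp2, Gbp2 and Gbp5 had 1 transcript each in the table. How reads shared by transcripts were divided is not given in the sources used here.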

How the data were processed

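The genes and gene lists were chosen with earlier results of these data known. The methods name HISAT2 and featureCounts, giving a count matrix per gene, for RNA-seq without setting the cell types apart. The OPC table deposited by the authors holds raw counts and FPKM per Ensembl gene, as that route would give. For neurons, the table deposited by the authors holds fractional estimated counts and TPM for RefSeq transcripts, a format that this description does not cover. Estimated counts were summed per gene, rounded, and given symbols from RefSeq GRCm38.p6 (17794 of 17918 genes; genes without a symbol held 0.0441% of counts). The labels name mm39 and the methods GRCm38, and 2.09% of the coordinates in the OPC table are those of GENCODE M21. Columns of the authors' own fold changes and p-values, and 18 further columns of per-sample values, were not used.

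Each fraction was fitted alone with edgeR 4.0.16 (R 4.3.3; quasi-likelihood, TMM, genotype as the only term) on genes averaging 10 or more normalized counts, with Benjamini-Hochberg adjustment at 0.05 over all genes tested. CPM are TMM-normalized. SEs were obtained from the log2 fold change and its F statistic. The interaction was fitted on genes that passed this filter in both tables, matched by symbol, with TMM factors within each table. DESeq2 1.42.0, its size factors, no filter, a replicate block and leaving out each library were alternatives. The named genes are all members, Cacna1c and Cacna1d, the 3 genes with the smallest p of each pathway list (of which only some are given) and the 5 genes most like Irgm1. A second promoter motif that was searched is not reported here. Ifng in OPCs, Irf8 levels, Cd3e and the markers called by DESeq2 were named after their values were seen. Replicates differed by more than sampling noise (chi-square per gene of at least 14.3). P-values measure the spread between libraries, each a pool of mice. The scripts were tested on simulated data. Protein sequences were not analysed here.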

Additional observations from a re-analysis of the deposited data

Results flagged for a closer look

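Irgm1 and Igtp were the genes of the set whose dKO libraries all lay above the ctl libraries in the OPC fraction and all below them in the neuron fraction. Irgm1 was chosen for this pattern. Of the other 9, 1 had all dKO libraries above ctl in the OPC fraction, against 7.41% of all genes, and 8 had all of them below ctl in the neuron fraction, against 7.82%. The difference of their log2 fold changes, OPC minus neuron, was 2.13 for Irgm1 and 2.42 for Igtp. For Irgm1 the difference was not tested, since the gene was chosen for it. For Igtp the separation by library was not tested as such, and the interaction did not pass in edgeR (adjusted p = 0.286) but did in DESeq2 (adjusted p = 0.0125). In the OPC fraction the lowest dKO and the highest ctl library of Igtp were at 9.34 and 9.26 CPM.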

How the results depend on the processing

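The number of genes called in the OPC fraction, 1 in edgeR, was 299 with DESeq2, 87 with no filter on low counts, 27 with the replicate block, and 1 to 199 with a library left out (199 without dKO library 2). None of the 9 tested GTPases was called under any of these. In the neuron fraction DESeq2 called 88 genes and 5 GTPases, and the other alternatives called 0 of both. For the difference between fractions DESeq2 called 159 genes and 3 GTPases, and leaving out a library gave 0 to 1 genes (1 without OPC dKO library 2 or neuron ctl library 2). With Spearman in place of Pearson, 1 instead of 3 of the 5 genes most like Irgm1 were members. Directions reversed in the OPC fraction for Iigp1 (-0.25 to 0.16 with a library left out, 0.11 without ctl library 3 and 0.16 without dKO library 2) and for Tgtp2 (-0.16 to 0.71 with a library left out, -0.16 without dKO library 1, and -0.14 with Tgtp1 added). Of the other values fitted for single genes other than Irgm1, 442 kept direction and side of the threshold, and 8 passed with DESeq2 only. The 10 ratios of group means in deposited FPKM, which have no test, moved by less than the spread between libraries. Leaving out a library, the log2 fold change of Irgm1 lay between 0.42 and 0.85 in the OPC fraction and between -1.76 and -1.02 in the neuron fraction.

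Libraries with the same number did not deviate together (r = -0.15, 0.19 and 0.17 in OPCs, 0.17, -0.04 and -0.05 in neurons), so the numbers were not taken as pairs. With the replicate block no GTPase was called in either fraction, and 3 of 9 in OPCs were higher at an unadjusted p under 0.05, against 7.07% of all genes.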

Other observations

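Genes of the autophagy machinery, with which Irgm1 is known to work, had median changes near 0 in both fractions. Of 16 tested in the neuron fraction, 9 averaged higher and 7 lower in dKO, none at an unadjusted p under 0.05 in edgeR, with a median log2 fold change of 0.03 and sums of 2430 to 2509 CPM in ctl and 2410 to 2516 CPM in dKO. In the OPC fraction 8 averaged higher and 8 lower with a median of -0.02. Of these 16, 1 was lower at an unadjusted p under 0.05 in edgeR, as were 915 of all 17364 genes tested, and none was higher. Atg16l1, which is needed to lipidate the proteins of the autophagosome membrane, was at 61.3 ± 2.26 CPM in ctl and 49.3 ± 1.27 CPM in dKO there (SD, n = 3), a log2 fold change of -0.32 ± 0.09 (SE) that did not pass (edgeR adjusted p = 0.310). Its groups were separate.

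Genes of the inflammasome, which GBP proteins help to activate, averaged lower in dKO in the neuron fraction and mostly higher in the OPC fraction. All 7 tested in the neuron fraction averaged lower in dKO, 3 at an unadjusted p under 0.05 (4.04% of all genes), with a median of -0.58, among them Casp4 (-1.30 ± 0.41, SE) and Aim2 (-1.03 ± 0.34). In the OPC fraction 7 of 9 averaged higher, 3 at an unadjusted p under 0.05 (6.27% of all genes), with a median of 0.64. Il1b, the cytokine that inflammasomes release, was at 2.80, 1.29 and 1.73 CPM in the ctl libraries and at 7.27, 4.72 and 10.6 CPM in the dKO libraries (1.93 ± 0.39, edgeR adjusted p = 0.246), the gene of this list that DESeq2 called, and Casp4 had a log2 fold change of 1.11 ± 0.39. The microglial markers, which were higher in the same dKO libraries, are given above, and their part in these values was not tested.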
